A study of Mus musculus with 4 samples.

Results

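The 9 genes described here encode receptors for acetylcholine: the muscarinic receptors Chrm1, Chrm2, Chrm3, Chrm4 and Chrm5, and the nicotinic subunits Chrna4, Chrna5, Chrna7 and Chrnb2. They were chosen by name from the 32287 features counted. The rule of choice used no level, but earlier results of these data were known when it was made. The study measured RNA in single nuclei of the medial prefrontal cortex of C57BL/6J mice aged 9 weeks, with the 10x Genomics 3' v3.1 chemistry. Every mouse expressed scFLARE2, a tagging system that drives a transcription reporter in cells with raised calcium during light, together with TRE-mCherry-p2a-bReaChES, a red fluorescent protein joined to a light-gated channel. The labels list 4 samples: a female and a male given DOI, an agonist of serotonin 5-HT2 receptors with psychedelic action, and a female and a male given saline, all examined 24 hours later. All nuclei lie in 1 deposited matrix with 4 libraries told apart by the barcode ending, and no file or label says which ending is which sample. DOI was therefore not compared with saline, nor female with male, and the matrix was treated as 1 sample without any test.

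Acetylcholine reaches the cortex mainly from the basal forebrain and acts through a pair of receptor families. Muscarinic receptors are single proteins coupled to G proteins: M1, M3 and M5 act through Gq and phospholipase C, whereas M2 and M4 act through Gi and reduce cyclic AMP. Nicotinic receptors are ion channels of 5 subunits, either of α7 alone or of α4 and β2 with or without the accessory α5. Deep-layer corticothalamic neurons are known for nicotinic currents that involve α5, and M2 is known as an autoreceptor on cholinergic terminals as well as a receptor of some cortical interneurons.

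After filtering, 12981 nuclei with a median of 8892 UMIs (unique molecular identifiers, each standing for 1 captured RNA molecule) remained, 1573 to 4187 per library. They formed 22 clusters, from which 17 classes were named by at least 3 enriched marker genes, each written with the ending "-like". Enriched meant at least 2-fold and at 10 UMIs per 1000000 or more. L6 IT-like nuclei (intratelencephalic neurons of layer 6) had 3 such markers, the minimum. An L6 CT-like cluster (corticothalamic neurons) of 816 nuclei had 5, with none among its leading genes. Excitatory nuclei numbered 8297, inhibitory nuclei 1345 and non-neuronal nuclei 2800, and their median UMIs were 10902, 8688 and 3000. They also included 335 medium spiny-like and 204 neuroblast-like nuclei, types of the striatum and of newborn neurons, and library 4 held 1 and 11 of these. The share of barcodes above the mitochondrial limit ran from 23.6% in library 1 to 54.0% in library 4. Markers were also read in classes that should lack them: Slc17a7, which loads glutamate into vesicles, stood at 246 UMIs per 1000000 in excitatory nuclei, 77.3 in inhibitory nuclei and 193 in non-neuronal nuclei. In all, 50 barcode sequences occurred in more than 1 library. Cluster names depend on the same nuclei in which the receptors were measured, so each class value is a description.

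Levels are given as CPM, the UMIs of a gene per 1000000 UMIs of the class, and ratios between classes as log2 values with exact 95% intervals that cover counting error only. A gene was called higher or lower in a class when at least 100 of its UMIs lay in the nuclei compared, the ratio was at least 2 or at most 0.5, and all 4 libraries had the same direction. A library with 0 UMIs of the gene on only 1 side of the comparison counted as a direction. In kept nuclei Chrm3 had 86474 UMIs, Chrm2 12893, Chrm1 5410, Chrna7 4687, Chrnb2 1149, Chrna4 1007 and Chrna5 472. Chrm4 had 51 UMIs and Chrm5 had 1. Per kilobase of annotated gene span, introns included, Chrm1 led with 273 UMIs, followed by Chrm3 with 178, Chrm2 with 91.9, Chrnb2 with 62.3, Chrna7 with 41.2, Chrna4 with 40.0, Chrm4 with 35.4 and Chrna5 with 17.5. Per kilobase of exon, Chrm3 led with 13829, followed by Chrm2 with 2130.0, Chrna7 with 1040.4 and Chrm1 with 834. The order of the members thus depended on which length was used, and whether intron reads were counted is not given in the sources used here.

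Neurons and non-neuronal nuclei differed in 4 of the 7 members that could be compared, all higher in neurons, beside 12.9% of all genes called higher and 37.4% called in either direction. The log2 ratio was 2.54 (2.46 to 2.62) for Chrm3, 2.06 (1.77 to 2.36) for Chrna7, 1.94 (1.78 to 2.12) for Chrm2 and 1.67 (0.88 to 2.59) for Chrna5. Chrm1 (0.33), Chrnb2 (0.19) and Chrna4 (-0.22) were not called. Between excitatory and inhibitory nuclei 2 of 7 members were called, beside 16.7% of all genes in either direction. Chrna5 had the higher level in excitatory nuclei, 4.31 CPM beside 1.70, with a log2 ratio of 1.34 (0.73 to 2.03). Chrna7 was lower in excitatory nuclei, at 35.1 against 71.2 CPM and a log2 ratio of -1.02 (-1.13 to -0.91). The call for Chrna7 lay at the edge of the rule and was lost without library 1, where the ratio was -0.98. At a mitochondrial limit of 1% neither gene was called (0.85 and -0.78). At the same limit Chrm3 (1.71), Chrna7 (1.41) and Chrna5 (0.93) were no longer called in neurons against non-neuronal nuclei, while Chrna4 (2.75) and Chrm1 (1.43) were called higher. Chrm1 stood at 45.9 CPM in excitatory and 23.9 in inhibitory nuclei, a log2 ratio of 0.94 that fell short of the rule. Chrm1 passed it without library 4 (1.02), with each nucleus thinned to 1500 UMIs (1.18) and with the geometric mean of the libraries (1.03).

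**Figure D1:**
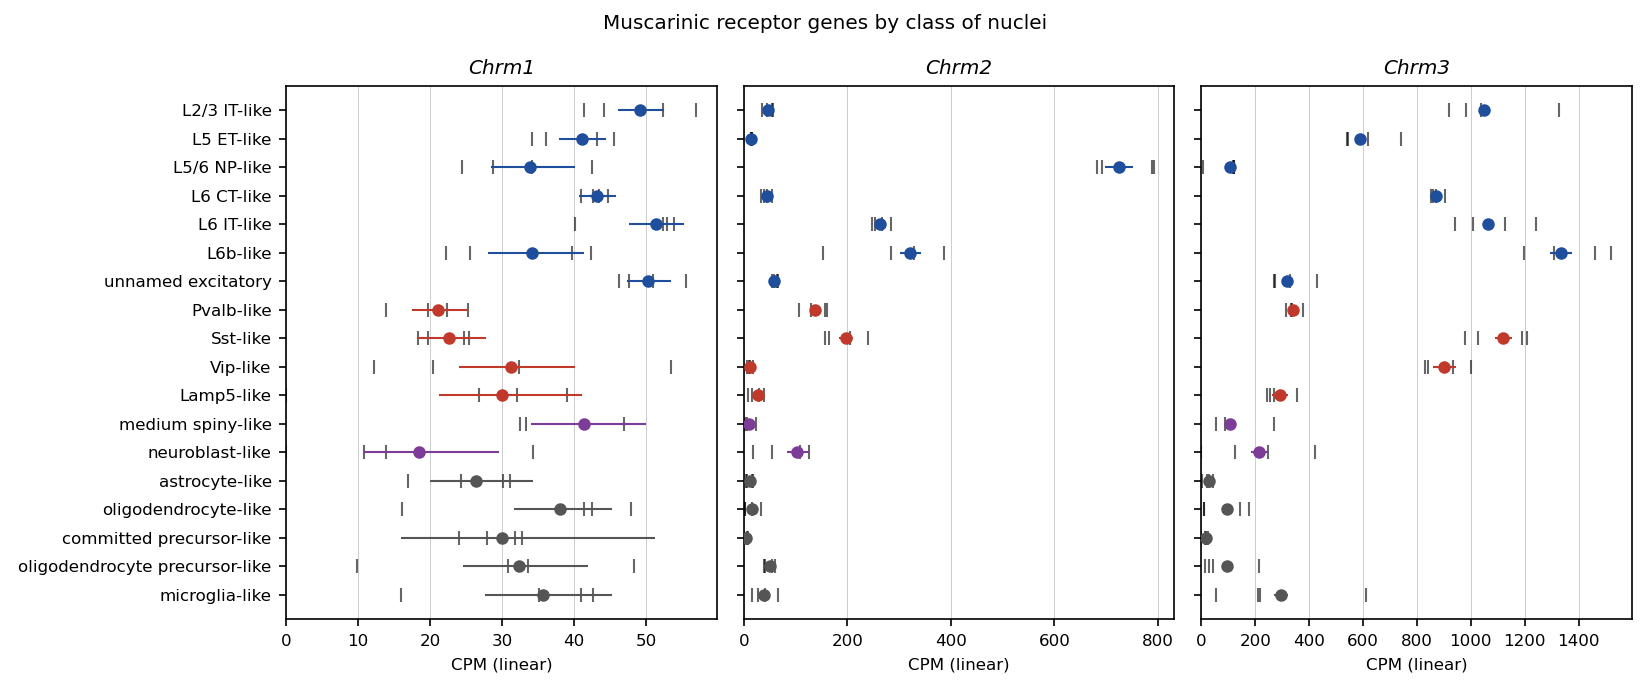
Levels of Chrm1, Chrm2 and Chrm3 by class, in CPM on linear axes that start at 0, with exact Poisson 95% intervals and a tick for each library with at least 5 nuclei of the class. Chrm2 peaks in L5/6 NP-like nuclei at 724 CPM, where Chrm3 stands at 107, and Chrm1 runs from 51.4 in L6 IT-like to 18.5 in neuroblast-like nuclei.

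Chrm2, encoding the Gi-coupled M2 receptor, was concentrated in a few deep-layer and inhibitory classes. The base sequence just upstream of its start is shown here because an RNA from the opposite strand, described further on, starts next to it and followed it across classes. These 250 bases lie at chr6:36387834-36388083 of GRCm38.p6, plus strand, taken from the RefSeq promoter table, with CG dinucleotides in capitals.
Chrm2 upstream: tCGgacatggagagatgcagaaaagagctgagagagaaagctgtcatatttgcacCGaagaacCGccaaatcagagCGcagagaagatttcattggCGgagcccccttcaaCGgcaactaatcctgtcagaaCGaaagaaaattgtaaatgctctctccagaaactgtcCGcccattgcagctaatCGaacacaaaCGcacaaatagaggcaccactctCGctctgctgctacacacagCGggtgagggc
The stretch holds 12 CG dinucleotides, beside a median of 6 over 32851 promoters of that table, of which 33.5% hold as many or more. That count left out the promoters of a chromosome and any incomplete stretches.

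L5/6 NP-like nuclei (near-projecting neurons of the deep layers) had the highest Chrm2 level of all named classes. Chrm2 stood there at 792, 692, 788 and 682 CPM in libraries 1 to 4, and at 724 (698 to 751) over the class. All 4 libraries were above every other class in every library. At least 1 UMI was found in 88.0% of these 440 nuclei, which had a median of 8173 UMIs, against 2.11% of astrocyte-like nuclei, which had a median of 3700. With each nucleus thinned to 1500 UMIs, the share in L5/6 NP-like nuclei was 55.2%. The distribution within the class was broad, with a median of 4 and a highest value of 80 Chrm2 UMIs in 1 nucleus.

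The next excitatory classes were L6b-like nuclei at 321 CPM and L6 IT-like nuclei at 262, which are neurons of the deepest cortical sublayer and intratelencephalic neurons of layer 6. The libraries of L6b-like nuclei read 387, 285, 154 and 329, and those of L6 IT-like nuclei read 285, 248, 267 and 253. The libraries of these classes overlap, so their order was not resolved. Far below stood L2/3 IT-like nuclei at 47.1, L6 CT-like nuclei at 44.1 (corticothalamic neurons) and L5 ET-like nuclei at 14.2 (extratelencephalic neurons of layer 5). L5 ET-like nuclei had the lowest level of the excitatory classes although their median depth, 13940 UMIs, was the greatest.

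Against the other excitatory classes, Chrm2 was called in all 6 comparisons. It was higher in L5/6 NP-like nuclei, with a log2 ratio of 3.02 (2.95 to 3.08), in L6 IT-like nuclei, 1.52 (1.46 to 1.58), and in L6b-like nuclei, 1.51 (1.42 to 1.61). The classes below the others were L2/3 IT-like (-1.60), L6 CT-like (-1.83) and L5 ET-like nuclei (-3.36). The L6 CT-like call was lost at a mitochondrial limit of 1% (-0.85) and the L6b-like call with doublets kept (1.14). The share of all genes called in these comparisons was 13.6% for L5/6 NP-like, 6.47% for L6 IT-like, 12.2% for L6b-like, 9.57% for L2/3 IT-like, 9.63% for L6 CT-like and 9.27% for L5 ET-like nuclei. Of the 7 members compared in each, 3, 3, 1, 4, 3 and 2 were called in that order.

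Among inhibitory classes Chrm2 was highest in nuclei of the somatostatin type, the Sst-like class, at 197 CPM (240, 156, 164 and 206 by library). Pvalb-like nuclei, the parvalbumin type, followed at 138 (106, 130, 157 and 160). The libraries of both classes overlap. Lamp5-like nuclei stood at 26.8 and Vip-like nuclei at 11.6, each below every library of the first pair. Relative to the other inhibitory classes, Chrm2 was higher in Sst-like nuclei by 1.05 (0.91 to 1.19) on the log2 scale and lower in Vip-like (-3.65) and Lamp5-like nuclei (-2.35). Pvalb-like nuclei were not called. The Sst-like call was lost without library 1 (0.81), with doublets kept (0.95) and at a mitochondrial limit of 20% (0.89). It was also lost with each nucleus thinned to 1500 UMIs (0.92). The Vip-like call was lost at a mitochondrial limit of 1%, where the log2 ratio was -1.33. The share of all genes called was 6.46% for Sst-like, 9.78% for Vip-like, 9.24% for Lamp5-like and 8.41% for Pvalb-like nuclei. Of the 5 members compared, 2, 2, 3 and 2 were called in that order.

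A similar class level can rest on very different numbers of nuclei. In Sst-like nuclei Chrm2 had a UMI in 32.8% of 411 nuclei, and 32 nuclei with 5 or more UMIs held 75.1% of the Chrm2 UMIs of the class. L6 IT-like nuclei had a UMI in 77.6%, and their 271 nuclei with 5 or more held 63.7%. Pvalb-like nuclei had a UMI in 38.5%, and 65 nuclei with 5 or more held 62.9%. Sst-like nuclei thus had few carriers at high counts, whereas most L6 IT-like nuclei had at least 1 UMI.

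**Figure D2:**
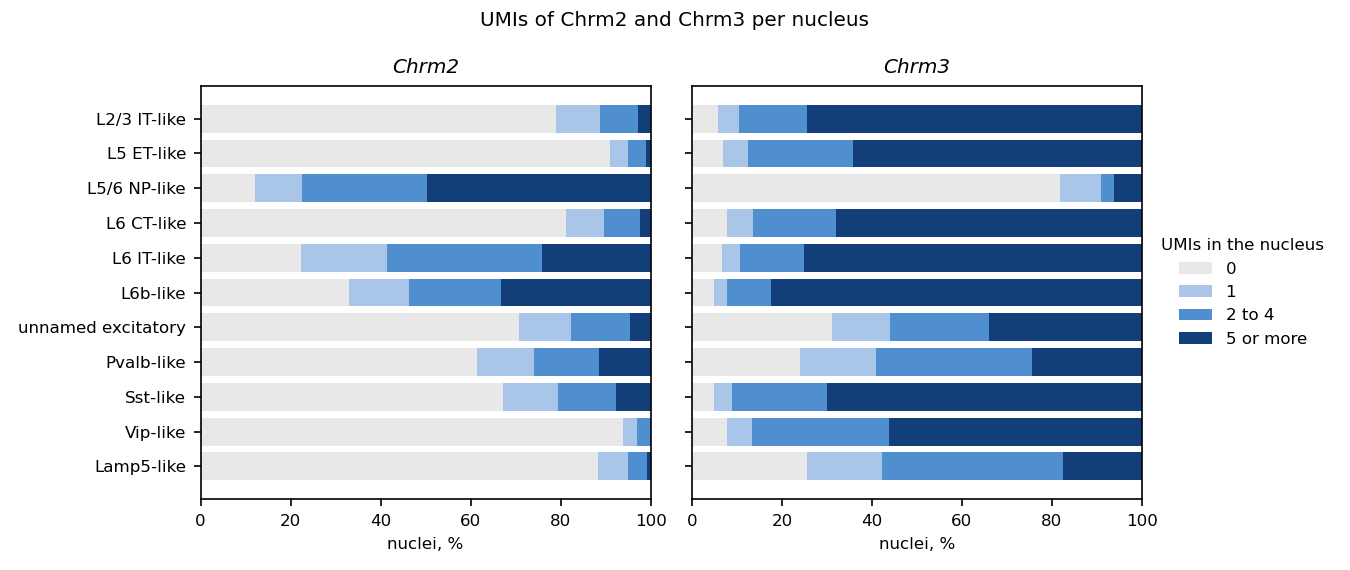
Share of nuclei of each neuronal class, in percent, with 0, 1, 2 to 4, or 5 or more UMIs of Chrm2 (left) and Chrm3 (right). In L5/6 NP-like nuclei 49.8% had 5 or more Chrm2 UMIs, against 7.79% of Sst-like nuclei.

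Chrm3, encoding the Gq-coupled M3 receptor, was read in most neuronal classes and was low in L5/6 NP-like nuclei. L6b-like nuclei had 1335 CPM (1199, 1309, 1522 and 1460 by library), Sst-like nuclei 1121 (978, 1190, 1026 and 1207), L6 IT-like nuclei 1064 (942, 1008, 1241 and 1128) and L2/3 IT-like nuclei 1051 (920, 981, 1329 and 1038). The libraries of neighbouring classes in this order overlap. Vip-like nuclei followed at 901, L6 CT-like nuclei at 870, L5 ET-like nuclei at 589, Pvalb-like nuclei at 339 and Lamp5-like nuclei at 292.

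In L5/6 NP-like nuclei Chrm3 stood at 107 CPM, with 121, 120, 7.34 and 117 by library. Only library 3, with 40 nuclei of this class, was near 0. The log2 ratio to the other excitatory classes was -3.09 (-3.23 to -2.95), and no other named excitatory class was called for Chrm3. A Chrm3 UMI was present in 18.2% of these nuclei, and 27 nuclei with 5 or more UMIs held 82.4% of the UMIs. L5/6 NP-like nuclei therefore had the highest Chrm2 level and the lowest Chrm3 level of the excitatory classes.

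Among inhibitory classes Chrm3 was higher in Sst-like nuclei, by a log2 ratio of 1.30 (1.24 to 1.36). It was lower in Pvalb-like nuclei (-1.43) and Lamp5-like nuclei (-1.25), and Vip-like nuclei were not called. Sst-like nuclei were the only inhibitory class in which both Chrm2 and Chrm3 were called higher. The Chrm2 call was lost at the settings given above.

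Chrm1, encoding the Gq-coupled M1 receptor of cortical pyramidal neurons, was read in every named class, within a narrower range than Chrm2 and Chrm3. Its named neuronal classes ran from 51.4 CPM in L6 IT-like nuclei down to 21.0 in Pvalb-like and 18.5 in neuroblast-like nuclei. Non-neuronal nuclei had 34.5, between excitatory and inhibitory nuclei, and barcodes removed by the filters had 61.9, above every named class. No subclass comparison called Chrm1. The contribution of RNA from outside the nuclei to these levels was not tested.

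Chrm4 and Chrm5 were almost unread. Chrm4, the Gi-coupled M4 receptor that is known for striatal medium spiny neurons, had 3 UMIs in the 335 medium spiny-like nuclei, 1.15 CPM. The mm10 annotation gives Chrm4 a single exon of 1440 bases (chr2:91927249-91928688, plus strand) with 3 bases beyond the coding part at the 3' end. Chrm5 (chr2:112479171-112480769, minus strand) is annotated the same way, with 1599 bases and 3 bases beyond the coding part, and its single UMI lay in an unnamed non-neuronal cluster. By contrast Chrm1, Chrm2 and Chrm3 carry 4275, 3807 and 1746 annotated bases there. The chemistry reads RNA from its 3' end, and whether reads of Chrm4 and Chrm5 fell outside these models was not tested.

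**Figure D3:**
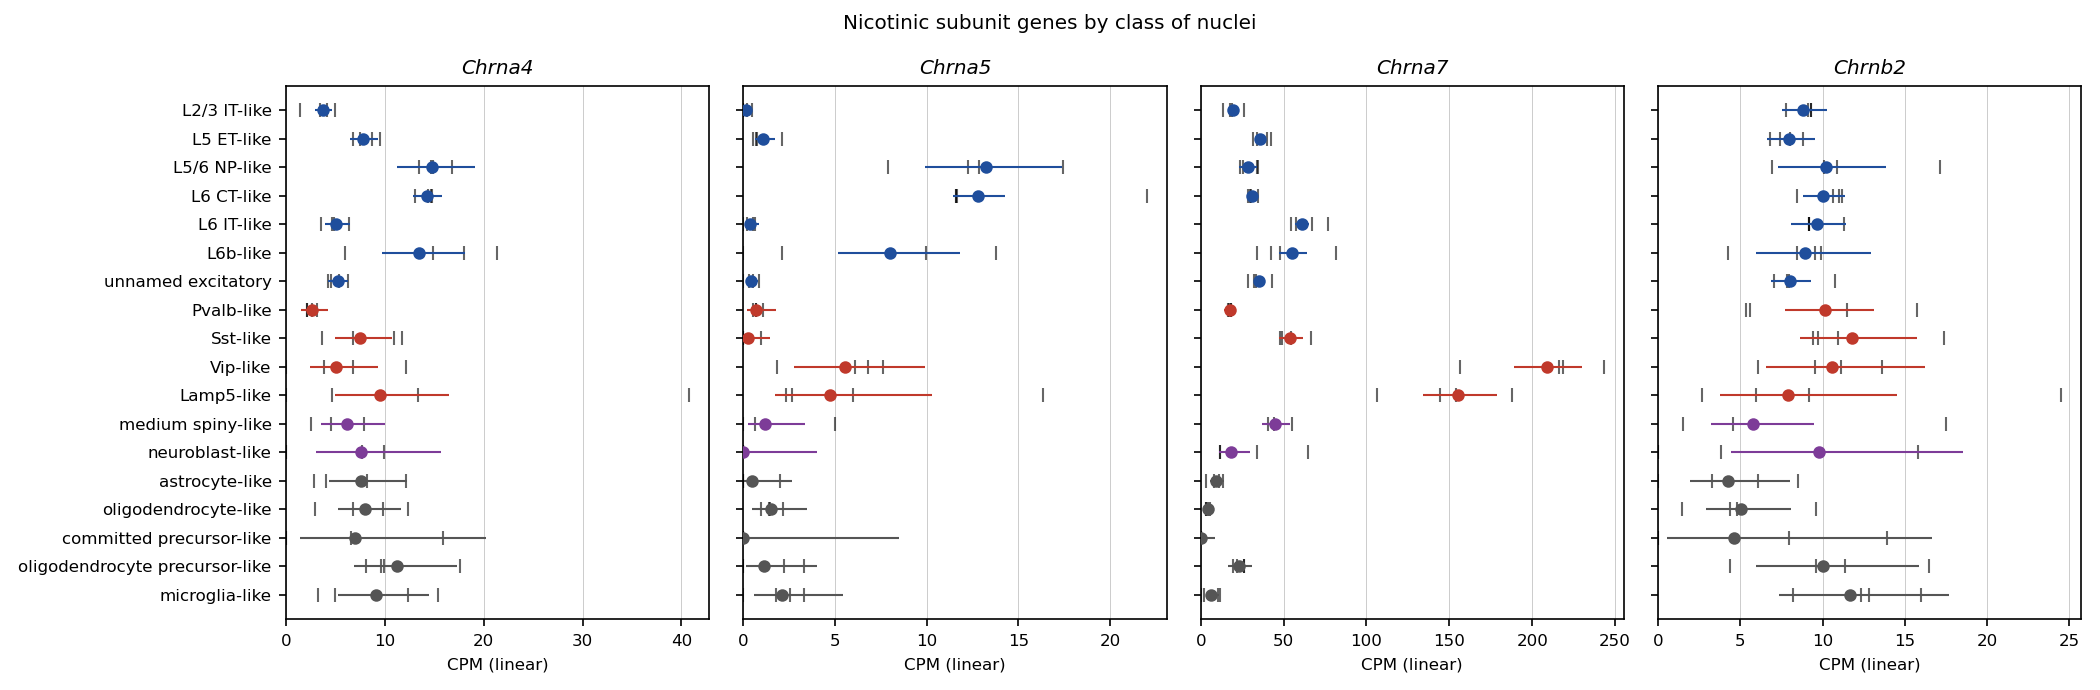
Levels of the nicotinic subunit genes by class, in CPM on linear axes that start at 0, with exact Poisson 95% intervals and a tick for each library with at least 5 nuclei of the class. Chrna7 stands out in Vip-like (209) and Lamp5-like nuclei (155), and Chrna5 in L5/6 NP-like (13.3) and L6 CT-like nuclei (12.8).

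Chrna7, encoding the α7 subunit that forms channels on its own, was highest in inhibitory nuclei of the Vip-like and Lamp5-like classes. Vip-like nuclei, named for vasoactive intestinal peptide, had 218, 243, 216 and 156 CPM in libraries 1 to 4. Lamp5-like nuclei, which include neurogliaform cells, had 144, 154, 106 and 188. The 2 sets of libraries overlap, and all 8 values lie above every library of the other classes. The share with at least 1 UMI was 63.2% in Vip-like and 65.0% in Lamp5-like nuclei, against 2.64% in non-neuronal nuclei. After thinning to 1500 UMIs it was 28.7% and 16.1%, against 0.963% in non-neuronal nuclei.

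Against the other inhibitory classes the log2 ratio of Chrna7 was 2.17 (1.98 to 2.36) in Vip-like and 1.32 (1.09 to 1.55) in Lamp5-like nuclei. At a mitochondrial limit of 1% the Vip-like value was 0.46 and the call was lost. Pvalb-like nuclei were lower, at 17.4 CPM and -2.72, and Sst-like nuclei, at 54.1, were not called. Vip-like nuclei were thus high in Chrna7 and at 11.6 CPM in Chrm2, while Pvalb-like nuclei had 17.4 of Chrna7 and 138 of Chrm2.

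In excitatory classes Chrna7 was highest in L6 IT-like nuclei, with 57.7, 67.4, 76.9 and 54.6 CPM by library. L6b-like nuclei stood at 55.3, L5 ET-like at 36.1, L6 CT-like at 30.7, L5/6 NP-like at 28.3 and L2/3 IT-like at 19.6. The log2 ratio was 1.04 (0.92 to 1.16) in L6 IT-like and -1.02 in L2/3 IT-like nuclei. Both calls lay near the edge of the rule and were lost without library 3, with values of 0.95 and -0.90. Doublets kept (0.998 and -0.94), resolution 0.5 (0.98 and -0.94) and the unnamed excitatory cluster in the reference (0.98 and -0.98) ended both too. The L6 IT-like call was also lost with each nucleus thinned to 1500 UMIs (0.90). The L2/3 IT-like call was also lost at a mitochondrial limit of 20% (-0.89) and with at least 1000 genes (-0.94). Resolution 2 (-0.79) and list genes among the variable genes (-0.89) ended it as well.

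Chrna5, encoding the accessory α5 subunit, was restricted mostly to deep-layer excitatory classes at low counts. L5/6 NP-like nuclei had 12.9, 7.91, 12.2 and 17.4 CPM by library, and L6 CT-like nuclei had 11.6, 11.6, 22.0 and 11.6. The libraries of the 2 classes overlap. L6 CT-like nuclei, the largest class, held 324 of the 472 Chrna5 UMIs. L6b-like nuclei followed at 7.99 from 25 UMIs, with none in library 3. Outside these classes Chrna5 was highest in Vip-like nuclei, at 5.55 from 11 UMIs, and Lamp5-like nuclei, at 4.73 from 6 UMIs.

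The log2 ratio of Chrna5 to the other excitatory classes was 2.78 (2.46 to 3.12) in L6 CT-like and 1.43 (0.98 to 1.85) in L5/6 NP-like nuclei. With each nucleus thinned to 1500 UMIs the L5/6 NP-like value was 0.67 and the call was lost. It was -2.58 in L5 ET-like nuclei, -4.11 in L6 IT-like nuclei from 5 UMIs, and -5.43 (-7.71 to -3.87) in L2/3 IT-like nuclei from 3 UMIs. The log2 ratios of the named excitatory classes spanned a wider range for Chrna5 than for the other nicotinic members. The deep classes themselves were not alike, since L6 IT-like nuclei, at 0.368 CPM, had less than their L6 CT-like neighbours in every library.

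Chrna4 and Chrnb2 encode the α4 and β2 subunits of the main heteromeric receptor of the brain. Chrna4 stood at 14.8 CPM in L5/6 NP-like, 14.2 in L6 CT-like and 13.4 in L6b-like nuclei. The libraries of L6 CT-like nuclei read 14.4, 13.1, 14.8 and 14.7, those of L5/6 NP-like nuclei 14.8, 16.8, 14.7 and 13.4, and those of L6b-like nuclei 5.96, 18.0, 21.3 and 14.8. The libraries of these classes overlap. L5 ET-like nuclei stood at 7.77, L6 IT-like at 5.08 and L2/3 IT-like at 3.69.

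Chrna4 was called higher in L6 CT-like nuclei, with a log2 ratio of 1.12 (0.91 to 1.34). L2/3 IT-like nuclei were lower (-1.52). L5/6 NP-like (0.77), L6b-like and L6 IT-like nuclei (-0.94) were not called, though L6 IT-like nuclei passed the rule under 5 other settings (-1.04 to -1.12), among them leaving out library 4, and L5/6 NP-like nuclei at a mitochondrial limit of 1% (1.40). With each nucleus thinned to 1500 UMIs the L6 CT-like value was 0.81 and the call was lost. Oligodendrocyte precursor-like nuclei had 11.2 CPM of Chrna4 (6.82 to 17.2), from 20 UMIs. That interval covers the levels of L5/6 NP-like, L6 CT-like, L6b-like and L5 ET-like nuclei, so no order is read. Barcodes removed by the filters had 19.2, above every named class, and the part of RNA from outside the nuclei was not tested.

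Chrnb2 varied little. Its level was 9.01 CPM in excitatory, 10.5 in inhibitory and 8.06 in non-neuronal nuclei, and the named classes ran from 4.24 in astrocyte-like to 11.8 in Sst-like nuclei. Chrnb2 was called in no comparison between classes, though thinning to 1500 UMIs brought L5 ET-like nuclei to -1.10 and leaving out library 3 brought medium spiny-like nuclei to -1.59, both past the rule. The gene overlaps Adar, on the opposite strand, by 7252 bases, and no source used here states whether the counting used strand. Without strand the reads of the overlap cannot be told apart.

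**Figure D4:**
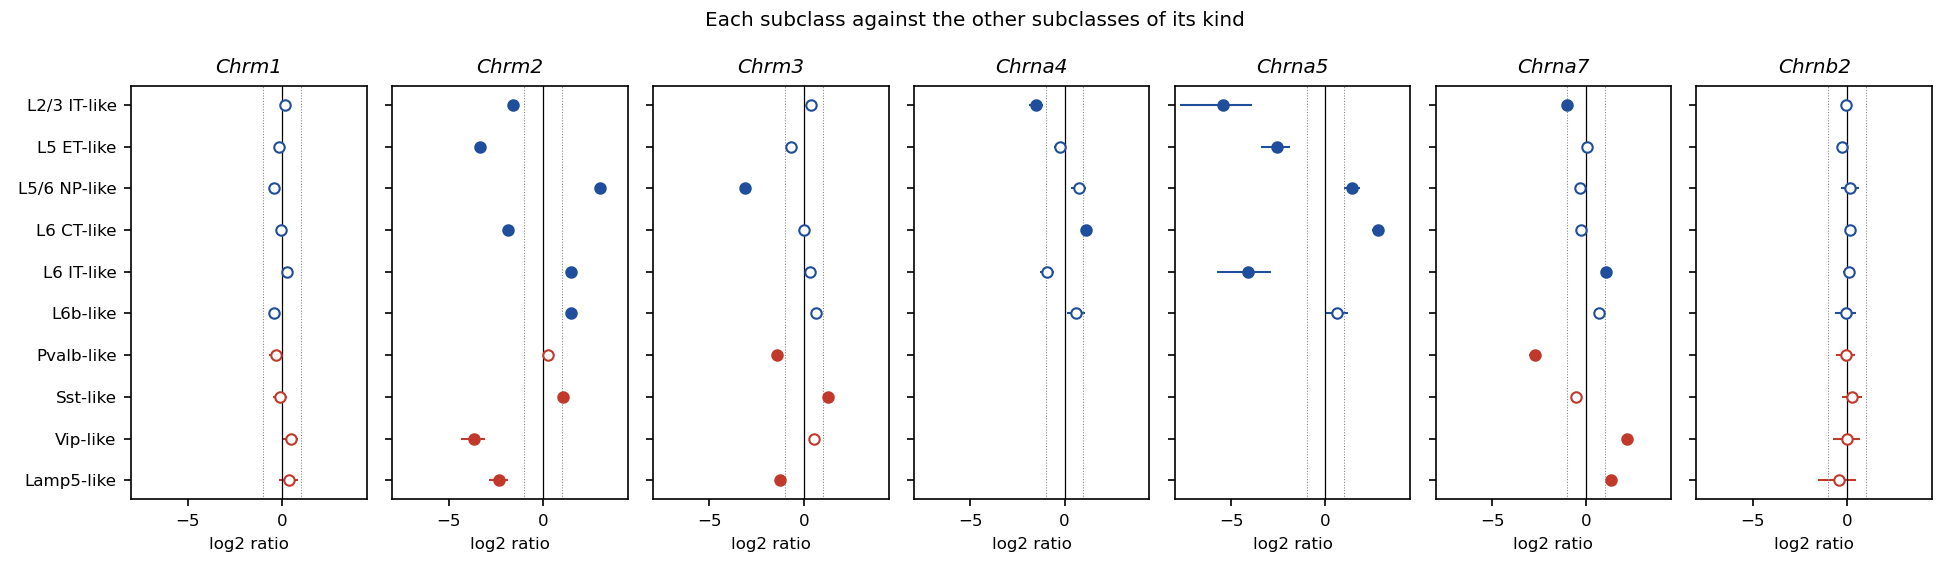
Log2 ratio of each subclass to the other subclasses of its kind (excitatory in blue, inhibitory in red), with exact 95% intervals for counting error; filled points were called higher or lower, dotted lines mark a ratio of 2 and of 0.5, and empty rows had fewer than 100 UMIs. Chrm2 moves in both directions, from 3.02 in L5/6 NP-like to -3.65 in Vip-like nuclei, while Chrm1 and Chrnb2 have no filled point.

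Within a class, the nuclei that carried 1 receptor were compared with those that did not. In Sst-like nuclei Chrna7 stood at 25.8 CPM in the 135 nuclei with Chrm2 and 69.8 in the 276 without. A Chrna7 UMI was present in 12.6% of the former and 27.2% of the latter, although the nuclei with Chrm2 were deeper (9979 against 8390 median UMIs). In L6b-like nuclei Chrm3 stood at 1099 CPM in the 165 nuclei with Chrm2 and 1816 in the 81 without, and the latter all had a Chrm3 UMI.

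Values for other pairs went in either direction, depending on the class. In L5 ET-like nuclei a Chrna7 UMI was present in 53.9% of the nuclei with Chrm2 and 29.1% of those without, with median depths of 18859 and 13638 UMIs. In Pvalb-like nuclei Chrna7 stood at 11.2 CPM with Chrm2 and 21.8 without. These 2 classes thus went opposite ways.

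In L5/6 NP-like nuclei Chrm3 stood at 97.2 CPM with Chrm2 and 179 without, while a Chrm3 UMI was present in 18.9% of the former and 13.2% of the latter, so no order is read from this pair. In L6 CT-like nuclei Chrm3 stood at 704 CPM with Chrm2 and 914 without. In L6 IT-like nuclei it stood at 1089 with Chrm2 and 958 without. In L6 CT-like nuclei a Chrna5 UMI was present in 9.15% of the nuclei with Chrna4 and 10.4% of those without. In oligodendrocyte-like nuclei Chrm3 stood at 570 CPM in the 24 nuclei with Chrm2, which had a median of 9438 UMIs, and at 54.4 in those without, with a median of 2702.

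Sub-clusters of a class differed too, in comparisons added after the values were seen. One L6 CT-like cluster of 1593 nuclei, led by Syt6, Foxp2 and Cpa6, had 54.4 CPM of Chrm2 against 19.9 in the other, of 816 nuclei led by Eya4 and Etv4. Chrna5 stood at 16.0 against 5.27. The log2 ratios were 1.45 and 1.60, and 2.99% of all genes were called between these clusters. Chrna4 was not called between them.

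The L2/3 IT-like class also split into a pair of clusters. The cluster of 837 nuclei led by Stard8 and Cux2 had 73.9 CPM of Chrm2, and the cluster of 740 nuclei led by Otof and Glis3 had 13.1, a log2 ratio of 2.49. Chrna7 went the other way, at 12.5 against 28.7 and -1.19. The share of all genes called was 5.27%. A further cluster of 1524 excitatory nuclei, led by BC006965, Il1rapl2 and Scn7a, met no class name. Against the named excitatory classes it was lower in Chrm2 (-1.03), Chrm3 (-1.46) and Chrna5 (-3.63), beside 6.67% of all genes called.

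Near Chrm2 lies the long noncoding gene 9330158H04Rik (chr6:36209620-36390191, minus strand), which overlaps the first 2108 bases of Chrm2 (chr6:36388084-36528414, plus strand), 1.50% of its span. In RefSeq it starts 150 bases inside Chrm2. It was examined after its values had been seen. Its 819 UMIs were concentrated in the classes rich in Chrm2: L5/6 NP-like nuclei had 69.2, 101, 117 and 97.3 CPM by library, Sst-like nuclei 22.1, L6b-like 16.6, Pvalb-like 14.3 and L6 IT-like 8.40. Vip-like and astrocyte-like nuclei had 0 UMIs. Across the 17 named classes Pearson's r of log2(CPM + 1) between the pair was 0.84, a description over classes that share libraries and differ in depth.

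The association also held between nuclei of 1 class. In Pvalb-like nuclei a Chrm2 UMI was present in 46 of 51 nuclei with 9330158H04Rik and in 172 of 515 without. In Sst-like nuclei the figures were 24 of 26 and 111 of 385. The nuclei with the noncoding RNA were deeper, at medians of 10992 against 8990 UMIs in Pvalb-like and 11012 against 8775 in Sst-like nuclei. Chrm2 stood at 1673 CPM in the 26 Sst-like nuclei and at 80.0 in the 385 others. Reads of the shared 2108 bases cannot be told apart without strand, and their part in this association was not tested.

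**Figure D5:**
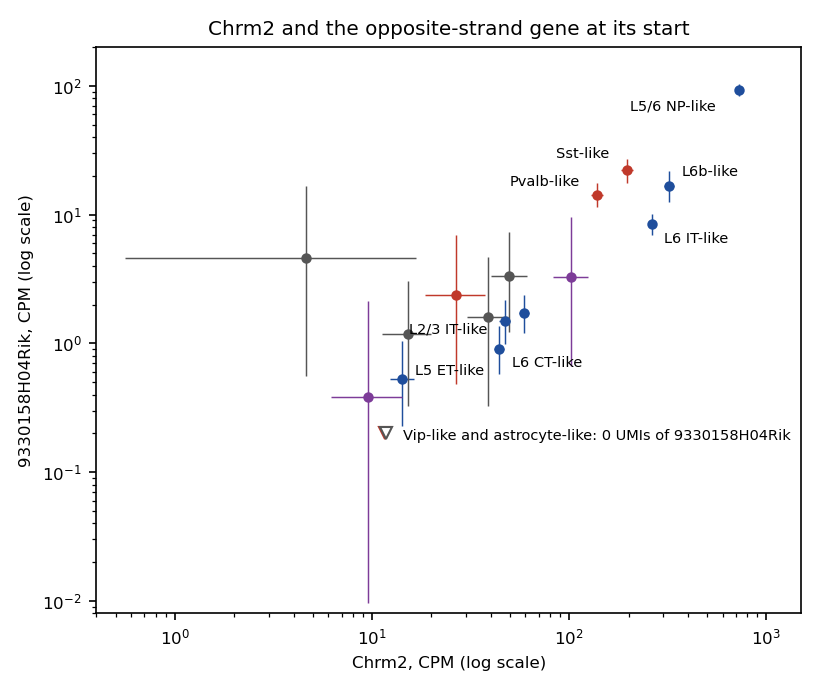
Chrm2 (x axis) and 9330158H04Rik (y axis) in each named class, in CPM on log scales, with exact Poisson 95% intervals; excitatory classes in blue, inhibitory in red, other neurons in purple and non-neuronal in grey. L5/6 NP-like nuclei lie at the top right (724 and 93.1), and the open triangles mark the classes with 0 UMIs of 9330158H04Rik.

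Chrna5 (chr9:54980880-55007779, plus strand) lies tail to tail with Chrna3 (chr9:55010111-55026562, minus strand), which encodes the α3 subunit, with 2331 bases between their ends. Of the 86 Chrna3 UMIs, 59 lay in L6 CT-like nuclei, 2.33 CPM. There 24 of 54 nuclei with a Chrna3 UMI also had Chrna5, against 223 of 2355 without, at median depths of 11151 and 9796 UMIs. Chrm3 holds Gm47405, a transcript inside an intron on its own strand, whose levels followed those of Chrm3 over the 17 classes with r = 0.91. Strand cannot tell reads of Gm47405 from intron reads of Chrm3 in that stretch. The part of Chrm3 RNA in this likeness was not tested.

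Among non-neuronal classes, microglia-like nuclei stood out for Chrm3, at 295 CPM and a log2 ratio of 2.03 (1.85 to 2.20) to the other non-neuronal classes, beside 26.3% of all genes called. The libraries ranged widely, with 218, 52.8, 211 and 612. Only 57 of 553 nuclei had a Chrm3 UMI, and 30 nuclei with 5 or more held 93.3% of the UMIs.

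The direction depended on the settings, since the log2 ratio was -0.30 at a mitochondrial limit of 20% and -0.08 at a clustering resolution of 2. Slc17a7, an excitatory marker that microglia should lack, stood at 228 CPM in the same nuclei, and the part of neuronal RNA in the Chrm3 value was not tested.

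Oligodendrocyte precursor-like nuclei had 49.7 CPM of Chrm2 (40.8, 59.3, 39.6 and 53.6 by library), a log2 ratio of 1.36 (0.97 to 1.75) to the other non-neuronal classes beside 20.6% of all genes called. The call was lost without library 2, where the log2 ratio was 0.98, with doublets kept (0.56), and with each nucleus thinned to 1500 UMIs, at 2.12. Chrna7 in these nuclei stood at 22.9, with 41 UMIs, too few for the rule.

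Astrocyte-like nuclei were lower than the other non-neuronal classes in Chrm2 (-1.29) and Chrm3 (-2.37), beside 25.7% of all genes called. Both calls were lost at a clustering resolution of 2, with -0.50 and -0.57, and that of Chrm2 also with doublets kept (-0.71). Committed precursor-like nuclei were lower in both as well (-2.50 and -2.90), from 2 and 7 UMIs, beside 29.6%. With 2 UMIs, Chrm2 had none there in some libraries, which counted as lower. With doublets kept the ratios were 0.43 and 0.28. No member was called in oligodendrocyte-like nuclei, beside 25.5%, but Chrm2 was called lower there at a mitochondrial limit of 20% (-1.84), at resolution 2 (-2.82) and without library 1 (-2.12), and Chrm3 at resolution 2 (-1.78). Medium spiny-like nuclei, which are striatal in type and had 1 nucleus in library 4, were lower than cortical inhibitory nuclei in Chrm2 (-3.71) and Chrm3 (-2.63), beside 18.5% of all genes called. At a mitochondrial limit of 1% the values were -2.60 and -2.06 and neither was called.

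The other genes of acetylcholine signalling were taken from 6 lists with 59 genes: other nicotinic subunits, synthesis and breakdown, chaperones and modulators, Gq and Gi coupling, and ion channels regulated by muscarinic receptors. Of the 12 other nicotinic subunits, only Chrnb1 and Chrna2 had the 100 UMIs needed in a comparison of neurons. Chrnb1, the muscle β1 subunit, was lower in excitatory than in inhibitory nuclei (-1.03), and Chrna2 was higher in neurons than in non-neuronal nuclei (3.30).

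Among the 9 chaperones and modulators, the prototoxin genes Lypd6 and Lypd6b, whose products bind nicotinic receptors, were the most uneven. Lypd6 stood at 2.95 CPM in excitatory and 68.2 in inhibitory nuclei, and Lypd6b at 10.2 and 110, log2 ratios of -4.53 and -3.43. Within inhibitory nuclei both were higher in Sst-like nuclei, at 164 against 27.1 (2.60) and 258 against 47.0 (2.45). Both were lower in Vip-like (-4.72 and -3.34) and Lamp5-like nuclei (-3.40 and -7.28), the inhibitory classes in which Chrna7 was called higher.

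Within excitatory nuclei Lypd6 and Lypd6b were higher in L6b-like (2.32 and 2.60) and L6 IT-like nuclei (1.73 and 1.84). Chrm2 was called higher in both classes, and Chrna7 in L6 IT-like nuclei. In L5/6 NP-like nuclei, the class highest in Chrm2, neither Lypd6 nor Lypd6b was called. Lypd1, another prototoxin gene, was higher in L5/6 NP-like nuclei, with 149 CPM beside 18.0 (3.05), and lower in L6 IT-like nuclei (-2.28). Of the 8 members of this list that could be compared, 1 was higher and 0 lower in L5/6 NP-like nuclei, 2 and 0 in L6b-like, 2 and 1 in L6 IT-like, 0 and 3 in L6 CT-like, and 2 and 0 in Sst-like nuclei. The shares of all genes called in those comparisons were 13.6%, 12.2%, 6.47%, 9.63% and 6.46%. The median log2 ratio of the list in L5/6 NP-like nuclei was 0.56, beside 0.10 over all genes compared. In the other named excitatory classes the list median ran from -0.36 in L5 ET-like to 0.03 in L6 IT-like nuclei.

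Of the 8 genes for synthesis, transport and breakdown, Bche and Ache, which encode cholinesterases, were higher in Sst-like nuclei, by 2.55 and 1.18 on the log2 scale. Bche was lower in L6 CT-like nuclei (-5.42) and higher in L2/3 IT-like nuclei (1.74). Colq, the collagen tail of acetylcholinesterase, was higher in L6 IT-like nuclei (3.06). Prima1, its membrane anchor in brain, and Slc44a1, a choline transporter, were higher in oligodendrocyte-like nuclei (3.89 and 1.88). The synthetic enzyme Chat had 65 UMIs in kept nuclei, of which 29 lay in Vip-like nuclei. Slc5a7, the choline transporter of cholinergic neurons, had 45 of its 113 UMIs there.

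In the Gq list downstream of M1, M3 and M5, Prkca was higher in L5/6 NP-like nuclei (1.39) and Prkcb lower (-1.27), both kinases of the protein kinase C family. Plcb4, a phospholipase C, was higher in L6 CT-like nuclei (1.46). Of the 10 genes in the Gi list, 0 were called higher and 1 lower in L5/6 NP-like nuclei, beside the same 13.6% of all genes: Adcy5 (-1.07), an adenylyl cyclase. That count is near the share of all genes, so nothing particular to Gi coupling is read from it. The median log2 ratio of the Gi list there was -0.008, beside 0.098 over all genes compared.

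Of the ion channel list, 4 of 9 compared genes were lower and 0 higher in L5/6 NP-like nuclei, where 13.6% of all genes were called in either direction, among them Trpc5 (-3.20), Trpc4 (-2.38) and Kcnq5 (-2.29). Trpc channels are cation channels opened downstream of Gq, and Kcnq channels carry the M current that muscarinic receptors close. In L5 ET-like nuclei Trpc4 (1.99) and Trpc5 (1.85) were higher, and in Vip-like nuclei Kcnq5 was higher (1.99).

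The TREmcherry feature counts RNA of the scFLARE2-driven reporter, and how many of its UMIs came from RNA outside the nucleus was not tested. In excitatory nuclei 826 had at least 1 TREmcherry UMI and 7471 had none, with median depths of 11968 and 10817 UMIs. None of the 7 members compared was called, beside 0.332% of all genes. Chrm2 stood at 90.0 CPM in positive and 110 in negative nuclei, a log2 ratio of -0.29 (-0.39 to -0.20), lower in 4 of 4 libraries. Chrm3 (-0.08), Chrm1 (-0.10) and Chrna7 (0.08) differed less, and Chrnb2 stood at 6.41 against 9.32 (-0.54).

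Within single classes the reporter comparison gave 1 call, Chrna4 in L5 ET-like nuclei (-1.13, -2.61 to 0.03), from 6 UMIs in 91 positive nuclei, beside 0.766% of all genes called. No member was called in L2/3 IT-like nuclei (0.532% of all genes called), L6 CT-like nuclei (0.631%), L6 IT-like nuclei (0.882%) or the unnamed excitatory cluster (0.355%). Chrnb2 in L6 CT-like nuclei stood at 4.51 CPM in positive and 10.7 in negative nuclei, a log2 ratio of -1.24 (-2.22 to -0.41) that was lower in 3 of 4 libraries, and it passed the rule at a mitochondrial limit of 20% (-1.11) and without library 3 (-1.32). Chrnb2 passed it in L2/3 IT-like nuclei when thinned to 1500 UMIs (-1.56), against -0.03 unthinned, and in L5 ET-like nuclei at the 20% limit (-1.19). Chrm2 passed it in L5 ET-like nuclei without library 4 (-1.19). The interval of the Chrna4 ratio includes 0, and leaving out library 1, 2 or 4 ended the call. Positive nuclei were unevenly spread over the libraries (125, 285, 37 and 379), and the classes that make up the positive nuclei were not matched to the negative ones.

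The genes whose pattern over the 17 named classes was most like that of a member were ranked by Pearson's r of log2(CPM + 1), among genes with at least 500 UMIs. For Chrm2 these were Unc13b (0.82), Xpc and Slit1. For Chrm3 they were Pqlc3 (0.91), Stxbp5 and Tdrd5, and for Chrna7 Syn2 (0.89), Nyap2 and Cacna1b. For Chrna4 they were Wasl (0.85), Sec24d and Fbxo31, for Chrm1 Adgrb2 (0.85), Slc8a2 and Dnajc1, and for Chrnb2 Gng2 (0.90), Mss51 and Fam111a. Between members, Chrm2 and Chrm3 had an r of 0.46 over the same classes. The classes share libraries and differ in depth, and these values are descriptions without a test.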

How the data were processed

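The deposited matrix holds raw UMI counts per feature and barcode, made with Cell Ranger 7.1.0 on mm10 per the submitters' processing notes and the file header, with TREmcherry and tTA added as features. Cell Ranger's intron and strand settings are not given in the sources used here. Barcodes under 500 genes or 800 UMIs, or above 5% mitochondrial UMIs, were dropped, 9132 of 22402 in all, and 289 more were removed at a doublet score of 0.25. Nuclei were clustered with scanpy 1.11.5 (2000 variable genes without members or list genes, 30 components, 15 neighbours, resolution 1) and named from markers. Raw counts were summed per class. Shares of nuclei have Clopper-Pearson, levels exact Poisson and ratios conditional binomial 95% intervals, which cover counting error only. Every member was named in each comparison; from a pathway list, no more than the 3 largest calls in each direction were named. The self-tests used simulated Poisson counts, with genes either unchanged or changed well beyond the cut-off, and most changed genes were called in the right direction. The simulated libraries shared the same rates, and no ratio near the cut-off was tried. The self-tests therefore do not bear on calls near the cut-off or on differences between libraries. Alternative settings changed filters, resolution, doublet removal, depth, the UMI minimum and the libraries. The added comparisons of clusters, the noncoding neighbour genes and the reference with the unnamed cluster were chosen after seeing the data. The members and lists were chosen with earlier results of these data known.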

Additional observations from a re-analysis of the deposited data

Results flagged for a closer look

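The 9132 barcodes removed by the filters, with a median of 2069 UMIs, belong to no class and enter no comparison, yet they held UMIs of 8 of the 9 receptor genes above the limit that a count of 0 allows. In these barcodes Chrm3 stood at 175 CPM, Chrm1 at 61.9, Chrm2 at 35.2 and Chrna4 at 19.2. Chrnb2 stood at 11.2, Chrna7 at 10.2, Chrna5 at 2.61 and Chrm4 at 0.429. Beside all kept nuclei, the removed barcodes were higher in Chrm1 (61.9 against 42.5), Chrna4 (19.2 against 7.91) and Chrnb2 (11.2 against 9.02). They were lower in Chrm3 (175 against 679), Chrm2 (35.2 against 101) and Chrna7 (10.2 against 36.8). Library 4 gave 4510 of these barcodes.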

How the results depend on the processing

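No paired analysis was possible because no barcode is tied to a sample. Of the 40 calls of a member in a class or reporter comparison, 37, 38, 38 and 39 were kept without library 1, 2, 3 and 4, 39 of 40 with at least 1000 genes per nucleus, 31 of 40 with doublets kept, 33 of 37 at a mitochondrial limit of 20%, and 15 of 25 at a limit of 1%. Calls that had no value at a setting are not losses but lower the counts that follow: 3 of 40 at 20% and, at 1%, 15 of 40, among them all calls in non-neuronal classes, all in inhibitory subclasses other than Vip-like, and the reporter call. Both Vip-like calls were lost at 1%, and Chrm2 in Sst-like nuclei (0.89) at 20%. The number of calls in excitatory against inhibitory nuclei went from 2 to 0 at the 1% limit and to 1 with doublets kept, and ranged from 1 to 3 when each library was left out. Calls in inhibitory subclasses went from 9 to 0 at the 1% limit, 5 at the 20% limit and 14 without a UMI minimum. Calls in non-neuronal classes went from 6 to 10 without a UMI minimum. Calls in medium spiny-like nuclei went from 2 to 0 at the 1% limit. The reporter comparison held 0 calls at the 1% limit, without the L5 ET-like comparison, and 2 at the 20% limit. It held 0 with the geometric mean of the libraries and 0 to 2 without 1 library. With each nucleus thinned to 1500 UMIs it held 4. Of these only Chrnb2 in L2/3 IT-like nuclei (-1.56) had a finite ratio, since the others had 0 thinned UMIs on 1 side. Direction changed for Chrna4 in neurons (2.75 at the 1% limit), Chrm3 in oligodendrocyte precursor-like nuclei (2.05 at the 20% limit), Chrm3 in microglia-like nuclei (-0.30 at the 20% limit and -0.076 at resolution 2), and Chrm2 and Chrm3 in committed precursor-like nuclei (0.43 and 0.28 with doublets kept). The cause was not tested. The named excitatory or inhibitory class with the highest level stayed the same for 3 of 7 members with each nucleus thinned to 1500 UMIs. That number was 4 of 7 with doublets kept, 4 of 7 without library 2 and 4 of 6 at the 1% limit. At the other settings where it was recomputed, it was 6 or 7 of 7. Few nuclei had any UMI of Chrna5, Chrna4, Chrnb2, Chrm4 or Chrm5, which limits the precision of their values.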
